A study of Caenorhabditis elegans with 16 samples.

Results

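The transthyretin-like genes of the nematode *Caenorhabditis elegans* were described across fed and fasted adults of 2 genotypes. Members were the protein-coding genes of the deposited count table whose name is ttr followed by a number, which gave 58 genes of 21982 in the table (20098 of them protein coding). A further gene, *ttr-4*, carries such a name but is annotated as a pseudogene and was left out. The choice used names and biotypes alone, and no measured value.

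Messenger RNA was measured by RNA sequencing of whole animals, about 1000 in each library, in 16 libraries that form 4 groups of 4. By the labels, N2 wild-type worms received an empty RNA interference (RNAi) vector, carried by *E. coli*, from the L1 larval stage to the second day of adulthood. The second genotype was mutant for *jmjd-3.1* (the gene of a histone H3 lysine 27 demethylase) and received RNAi against *cbp-1*, the CBP/p300 acetyltransferase of the same lysine, over the same period. For the last 24 hours, from adult day 1 to day 2, animals of each genotype were either kept on food or fasted. The groups were thus fed wild type, fasted wild type, and fed and fasted animals of the second genotype. The growth protocol names RNAi bacteria but the treatment protocol names plates of another *E. coli* strain. Which of them the fed animals ate in the last 24 hours is therefore not certain. All animals were grown at 20 °C and all libraries are labelled as batch 1. The labels describe 4 independent experiments with separately synchronized animals. They name the second genotype H3K27ac-deficient, and give its allele as gk384 in the titles and as gk387 in the genotype field. Reads of the targeted genes did not fall in it: among fed animals *cbp-1* averaged 103 ± 16.9 CPM (wild type) and 209.6 ± 36.5 CPM (second genotype), and *jmjd-3.1* averaged 12.3 ± 0.398 and 17.4 ± 2.70 CPM (SD, n = 4 libraries). Among fasted animals the means were 149.2 and 276 CPM for *cbp-1* and 20.03 and 21.84 CPM for *jmjd-3.1*, in the same order. Messenger RNA reads do not measure the histone mark, so these values cannot test the label. The second genotype is called labelled-deficient throughout because its state is known from the labels alone. RNAi lowers a transcript without deleting its gene, and whole animals mix all tissues and the embryos held in the uterus. No group had the mutation or the *cbp-1* RNAi alone, so their parts in a genotype difference cannot be told apart.

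Transthyretin is known in vertebrates as a carrier of thyroid hormone and retinol-binding protein. Nematodes have a large family of small proteins that share a related domain, most of them with a signal for secretion, and the role of most members is not known. For 2 members a role is established in *C. elegans*: TTR-52 is a secreted protein that binds phosphatidylserine on dying cells and bridges it to the engulfment receptor CED-1, and TTR-33 protects dopaminergic neurons from oxidative damage.

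The members lie on all 6 chromosomes, with 22 on chromosome V, 12 on X, 10 on IV, 9 on III, 3 on I and 2 on II (genome build WBcel235). In all, 29 of the 58 lie within 10 kb of another member. The longest annotated coding sequence had a median of 143 codons and ranged from 89 codons in *ttr-57* to 406 in *ttr-14*.

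Read totals were 16446081 to 27792762 per library, and the members together took 0.418% to 0.871% of the reads. Of the 58 members, 49 had enough reads to be tested, by the filter of edgeR that keeps genes with sufficient reads in at least as many libraries as a group holds. The 9 others (*ttr-9*, *ttr-11*, *ttr-12*, *ttr-13*, *ttr-19*, *ttr-55*, *ttr-56*, *ttr-57* and *ttr-58*) had at most 15 reads in any library and 6 to 72 reads in all 16 together. Among the tested members 6 averaged under 5 CPM (*ttr-7*, *ttr-22*, *ttr-28*, *ttr-31*, *ttr-38* and *ttr-52*). CPM is the read count of a gene relative to the library size, scaled by TMM (trimmed mean of M-values), and is used here to follow a gene across libraries. Levels of different genes are compared in TPM, a relative transcript abundance that accounts for transcript length.

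Replicate 4 was low for the members in 3 of the 4 groups. In fed wild type all 49 tested members were lower in replicate 4 than in the mean of the other libraries of the group, with a median log2 difference of -0.64, while the median over all genes was -0.09. Members were lower in replicate 4 for 42 of 49 in fasted wild type (median -0.23) and 44 of 49 in fed labelled-deficient animals (median -0.41). The medians over all genes were -0.004 and -0.017 there. In fasted labelled-deficient animals replicate 4 did not stand apart: members were lower in it for 38 of 49 (median -0.15). They were lower in replicate 1 for 41 of 49 (median -0.11), while replicate 2 was high (median 0.17). The number of all genes that were lower in a replicate was not counted. Counts of called genes are therefore also given without replicate 4 of every group, a setting chosen after the data were seen.

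The most abundant member by mean TPM over all libraries was *ttr-51* (WBGene00010440, chromosome IV, 13250655 to 13252311, minus strand), at 4116 TPM, followed by *ttr-15* at 1334 TPM and *ttr-16* at 1012 TPM. The next members, *ttr-2*, *ttr-50* and *ttr-48*, averaged 739, 730 and 724 TPM, and their order changed between groups. Wild-type levels of *ttr-51* were 2130.4 ± 508 TPM with food and 4745 ± 683 TPM without, and labelled-deficient levels were 3143 ± 648 and 6448 ± 633 TPM (mean ± SD, n = 4). Its share of the summed TPM of the family went from 14.6% ± 1.68 (fed) to 29.5% ± 1.74 (fasted) in wild type and from 24.6% ± 1.70 to 45.5% ± 1.42 in labelled-deficient animals. A single gene thus held a larger part of the family's transcripts in fasted than in fed animals of each genotype. In fasted labelled-deficient animals *ttr-51* stood at the 99.98th percentile of all genes by TPM. By mean TPM, 18 of the 49 tested members peaked in wild type with food, 19 in wild type without food, 5 in labelled-deficient animals with food and 7 in those without. On the CPM scale these counts were 22, 20, 3 and 4. The same counts were not made over all tested genes, so they do not show a trait of the family.

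Library by library, *ttr-51* was at 1037, 1076, 1048 and 614 CPM in fed wild type and at 1907, 1892, 1792 and 1391 CPM in fasted wild type. In labelled-deficient animals it was at 1255, 1136, 1162 and 790.0 CPM when fed and at 1746, 2292, 2123 and 1872 CPM when fasted. The fasted libraries lay above all fed libraries of the same genotype, and replicate 4 was the lowest of both fed groups and of fasted wild type. Its log2 changes on fasting (log2 CPM of fasted minus fed, ± SE) were 0.89 ± 0.17 for wild type and 0.89 ± 0.17 for labelled-deficient animals, with adjusted p = 0.000145 and adjusted p = 0.000336 by edgeR's quasi-likelihood test with Benjamini-Hochberg adjustment over the 15840 genes tested. In CPM the genotypes overlapped in both feeding states, whereas in TPM the fasted labelled-deficient libraries lay above the fasted wild-type ones. Scaled by library size alone, the fed difference was called at 0.51 (adjusted p = 0.0193, edgeR).

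The second member by level, *ttr-15* (WBGene00011561, chromosome III, 10337847 to 10339440, plus strand), was at 1003, 1327, 1412 and 792 CPM in fed and 885, 800.5, 759.7 and 671 CPM in fasted wild type. In labelled-deficient animals it was at 689, 697, 759.8 and 496 CPM when fed and at 231, 316, 275 and 239.7 CPM when fasted. Fasted labelled-deficient libraries were the lowest of all, below every library of the other groups. The log2 change on fasting was -1.32 ± 0.17 in labelled-deficient animals (adjusted p = 1.74e-06, edgeR) and -0.54 ± 0.17 in wild type (adjusted p = 0.00765, edgeR), where the groups overlapped. With libraries scaled by their size alone, the wild-type change was -0.19 and lost its call (edgeR adjusted p = 0.334).

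*ttr-16* (WBGene00012382, chromosome IV, 11063530 to 11064137, minus strand) was at 679.9, 1112, 882 and 672 CPM in fed and 256, 234.7, 224 and 234 CPM in fasted wild type. It was at 412, 471, 504 and 388 CPM in fed and 219, 237, 237 and 233 CPM in fasted labelled-deficient libraries. Fed libraries of either genotype were above all fasted ones, and the fasted groups of the genotypes overlapped. The log2 changes on fasting were -1.82 ± 0.14 for wild type and -0.94 ± 0.14 for labelled-deficient animals (adjusted p = 2.46e-10 and adjusted p = 1.13e-05, edgeR). Exons of *ttr-16* share 40.7% of their bases with *lin-3* on the opposite strand. Whether reads were assigned by strand is not given in the sources used here, so reads of the shared bases could come from either gene. The group means of *lin-3* were 17.7 to 47.9 CPM, against 231 to 836 CPM for *ttr-16*.

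The members *ttr-2*, *ttr-50* and *ttr-48*, of like mean TPM, followed different courses. *ttr-2* (WBGene00010539, chromosome III, 9927769 to 9929004, plus strand) was at 379.7, 449.7, 454 and 307 CPM in fed and 480.4, 442, 451 and 443 CPM in fasted wild type, which overlapped. In labelled-deficient animals it was at 189.9, 199, 228 and 161 CPM when fed and 162, 141, 140.1 and 131 CPM when fasted, all below the wild-type libraries. *ttr-50* (WBGene00010234, chromosome IV, 11640047 to 11641015, minus strand) was at 338, 366, 371 and 221 CPM in fed and 931, 833, 829 and 742 CPM in fasted wild type. In labelled-deficient animals it was at 478, 469.8, 525 and 353 CPM when fed and 711, 813, 829 and 674 CPM when fasted, so that fasted libraries were above fed ones in each genotype. *ttr-48* (WBGene00022515, chromosome X, 3840869 to 3842448, minus strand) was at 389, 363, 387 and 242 CPM in fed and 337, 357, 335 and 252 CPM in fasted wild type. It was at 489, 449.8, 457 and 356 CPM in fed and 239, 293, 288 and 247 CPM in fasted labelled-deficient animals. The fed and fasted libraries of *ttr-48* overlapped in wild type and stood apart in labelled-deficient animals.

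**Figure D1:**
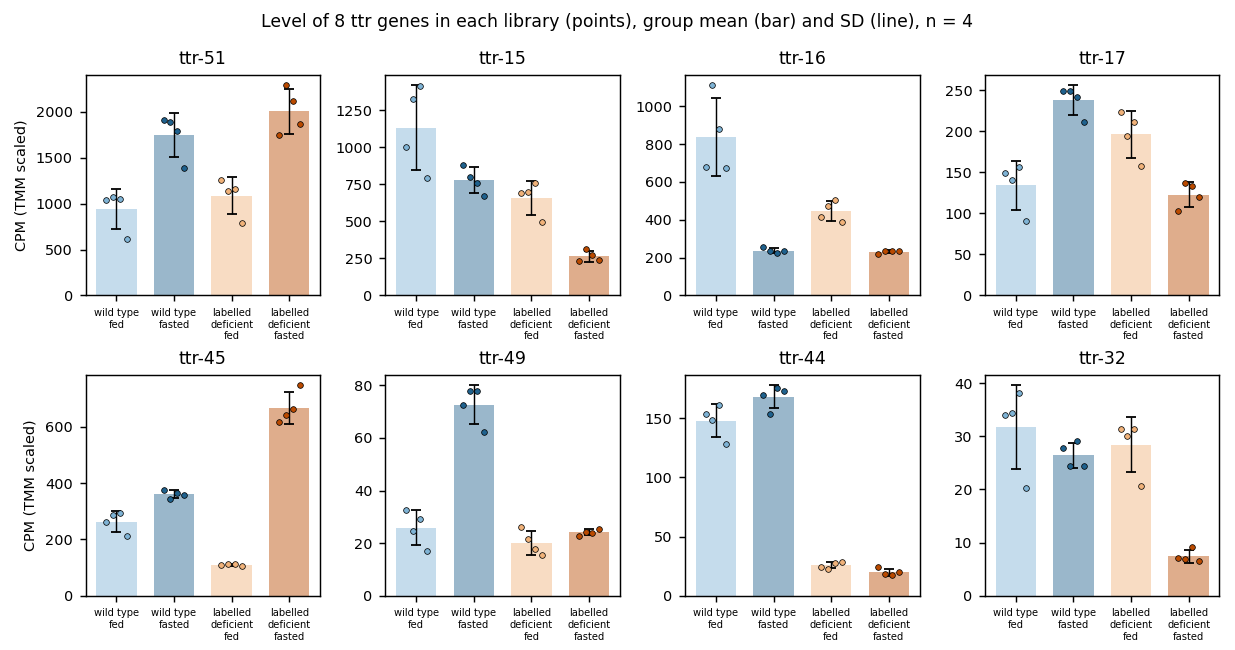
TMM-scaled CPM (y axis) of 8 transthyretin-like genes in the 4 groups (x axis). Points are libraries, bars are group means and lines are SD (n = 4). Fasted libraries were above fed ones for *ttr-51* and *ttr-45* in each genotype, while *ttr-17* rose in fasted wild type and fell in fasted labelled-deficient animals, and *ttr-44* was low in all labelled-deficient libraries.

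Which members change when wild-type adults are fasted was asked first. Of the 49 tested members, 13 rose and 20 fell on fasting in wild type (edgeR adjusted p under 0.05), which is 26.5% and 40.8% of them. Among all tested genes 30.4% rose and 30.6% fell. The median log2 change of the members was -0.11, against 0.01 over all tested genes, and its sign was not stable: leaving out 1 library gave -0.17 to 0.01, the highest without replicate 3 of fed wild type, and testing without a filter on low counts gave 0.04. The members thus split in both directions, and the share that rose was near that of all genes. Changes of 2-fold or more (1 on the log2 scale) were called for 3 members upward and 13 downward (6.12% and 26.5%, against 16.5% and 10.4% of all tested genes).

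Among members with at least 5 CPM on average, *ttr-49* rose by the most. *ttr-49* (WBGene00023485, chromosome V, 9355505 to 9356515, minus strand) was at 32.6, 24.7, 29.3 and 17.1 CPM in fed and 72.7, 77.9, 77.7 and 62.1 CPM in fasted wild type. The fasted libraries were all above the fed ones, with a log2 change of 1.48 ± 0.16 (adjusted p = 9.63e-08, edgeR). *ttr-50*, described above, had a log2 change of 1.36 ± 0.15 (adjusted p = 1.02e-07, edgeR). *ttr-34* rose from 12.1 ± 4.23 to 23.2 ± 1.54 CPM and *ttr-5* from 113 ± 23.9 to 216 ± 23.4 CPM (mean ± SD), each with a log2 change of 0.94. *ttr-22*, with a mean under 5 CPM and singled out after its values were seen, had a larger log2 change of 2.30 ± 0.35.

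The largest falls in wild type exceeded the largest rises. *ttr-18* (WBGene00007142, chromosome II, 11485510 to 11486748, minus strand) was at 65.5, 87.1, 81.1 and 69.3 CPM in fed and 14.8, 15.6, 13.9 and 14.6 CPM in fasted wild type, a log2 change of -2.36 ± 0.12 (adjusted p = 2.04e-13, edgeR). *ttr-6* (WBGene00020886, chromosome X, 6596425 to 6597121, minus strand) was at 373, 389, 393 and 302 CPM when fed and 80.2, 73.8, 74.9 and 79.5 CPM when fasted, a log2 change of -2.24 ± 0.11 (adjusted p = 5.95e-14, edgeR). *ttr-59* (WBGene00020339, chromosome X, 7329818 to 7330669, plus strand) was at 60.5, 64.1, 59.3 and 42.2 CPM when fed and 14.3, 15.5, 13.2 and 13.4 CPM when fasted, a log2 change of -2.002 ± 0.13 (adjusted p = 6.75e-12, edgeR). In each of these genes the fed and fasted libraries were far apart, and replicate 4 did not break the order. *ttr-46* fell from 678 ± 63.5 to 191 ± 14.9 CPM (log2 change -1.83 ± 0.11). *ttr-28* and *ttr-31*, both under 5 CPM on average and singled out in the same way, had changes of -3.21 and -3.09.

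The split depended on how libraries were scaled. Scaling by library size alone gave 23 members up and 14 down, against 7458 and 2523 of the 15840 tested genes. The share of members that rose was then near that of all genes, whose median change went from 0.01 to 0.35. With only genes of at least 5 CPM on average, 14 of 43 members rose and 13 fell, against 2975 and 3254 of 10092 genes. The share that fell was then not above that of all genes. The median change there was 0.18 for members and -0.03 for all genes. Without replicate 4 of every group the counts were 14 and 22, against 4515 and 4823 of 16001 genes. Over the same contrast, in these whole-animal libraries, markers of other tissues moved as well. Of 7 intestine markers 1 rose and 5 fell, with a summed level of 37038 to 50085 CPM in fed and 34955 to 42924 CPM in fasted wild type. Nearly all of that sum was *vit-2*, which was not called, and *vit-6*, which fell. Of 6 body wall muscle markers 1 rose and 4 fell, from 2332 to 3443 CPM to 1517 to 1662 CPM. The summed level of 6 hypodermis markers was 1453 to 2686 CPM in fed and 247 to 279 CPM in fasted animals, but nearly all of it was the collagen gene *col-19* (means of 1807 and 190.1 CPM): of 5 tested markers *col-19* and *elt-3* fell, *dpy-7* rose and *lin-26* and *bli-1* were not called. That of 4 somatic gonad markers was 335 to 449 CPM and 111 to 127 CPM, with 3 down. Of 9 germline and oocyte markers 1 rose and 7 fell, and of 7 embryo markers 6 rose, from 5.53 to 6.37 CPM in fed to 17.8 to 19.2 CPM in fasted animals. Their part in the members' changes was not tested, and fewer cells of a type cannot be told apart from less RNA per cell.

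In labelled-deficient animals fasting lowered most of the family. Of 49 tested members 5 rose and 34 fell, which is 10.2% and 69.4%, against 19.6% and 15.7% of all tested genes. The median log2 change of the members was -0.70, while that of all tested genes was 0.11. Changes of at least 2-fold were called for 2 members upward and 17 downward (4.08% and 34.7%, against 4.49% and 6.31% of all tested genes). Without replicate 4 of every group 6 rose and 34 fell, against 2753 and 2773 of 16001 genes.

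The members that rose were *ttr-45*, *ttr-22*, *ttr-51*, *ttr-50* and *ttr-23*. *ttr-45* (WBGene00044737, chromosome IV, 13254225 to 13255538, plus strand) stood out by size. It was at 111, 114, 112 and 105 CPM in fed and 616, 642, 663 and 748 CPM in fasted labelled-deficient libraries, a log2 change of 2.59 ± 0.11 (adjusted p = 3.09e-14, edgeR). In wild type it was at 263, 286, 294 and 211 CPM when fed and 376, 342, 365 and 359 CPM when fasted, a log2 change of 0.45 ± 0.11 (adjusted p = 0.00116, edgeR). The 4 groups did not overlap, and their order was fed labelled-deficient, fed wild type, fasted wild type, fasted labelled-deficient. *ttr-50* rose by 0.73 ± 0.15 and *ttr-23* by 0.59 ± 0.18 (adjusted p = 0.000618 and adjusted p = 0.0151, edgeR). The call for *ttr-23* was lost without replicate 4 of the fed or replicate 2 of the fasted labelled-deficient group, where its change was 0.43 to 0.50.

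Among the members that fell, *ttr-32* (WBGene00020047, chromosome III, 7566411 to 7567523, plus strand) was at 31.4, 30.1, 31.4 and 20.7 CPM in fed and 7.06, 6.97, 9.22 and 6.496 CPM in fasted labelled-deficient animals, a log2 change of -1.94 ± 0.18 (adjusted p = 9.23e-09, edgeR). In wild type it was at 34.1, 34.5, 38.1 and 20.3 CPM when fed and 27.9, 24.4, 29.1 and 24.3 CPM when fasted, and these libraries overlapped. *ttr-59* fell in labelled-deficient animals too, from 16.1, 15.9, 16.0 and 16.1 CPM to 4.79, 4.79, 3.67 and 4.05 CPM. Fed replicates of *ttr-59* were nearly equal in this genotype, replicate 4 included. *ttr-18* fell from 24.4, 27.5, 27.6 and 25.3 CPM to 7.28, 7.51, 6.74 and 9.83 CPM, and *ttr-6* from 185, 185, 220.4 and 172 CPM to 95.6, 97.2, 98.7 and 94.9 CPM. *ttr-8*, the neighbour of *ttr-32* on chromosome III, fell from 7.66 ± 1.37 to 2.35 ± 0.887 CPM (log2 change -1.72 ± 0.23).

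Over this contrast 4 of 6 body wall muscle markers fell, with a summed level of 1752 to 2292 CPM in fed and 927 to 1038 CPM in fasted libraries. All 3 coelomocyte markers fell, from 10.4 to 16.7 CPM to 7.81 to 8.09 CPM, and 3 of 4 somatic gonad markers fell, from 163 to 190.4 CPM to 109.8 to 129 CPM. Of 5 tested hypodermis markers *col-19* and *elt-3* fell, and the summed level went from 549.6 to 793 CPM to 119.4 to 139 CPM. Of 7 intestine markers 2 rose and 2 fell, of 7 embryo markers 4 rose (from 6.65 to 8.73 CPM to 10.7 to 13.9 CPM), and of the germline and oocyte markers 1 rose and none fell. Their part in the members' changes was not tested. With DESeq2 size factors in place of TMM, the members again split 5 to 34, while all tested genes went from 3109 up and 2485 down to 2213 up and 2966 down.

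Set side by side, the 2 genotypes shared a block of members that fell on fasting. Of the 49 members 19 fell in both genotypes (38.8%, against 11.9% of all tested genes) and 5 rose in both (10.2% against 13.4%). Another 12 passed no call in wild type and fell in labelled-deficient animals (24.5% against 3.08%), and each of the 12 also passed the test of the difference between genotypes given below. They were *ttr-2*, *ttr-3*, *ttr-8*, *ttr-26*, *ttr-30*, *ttr-32*, *ttr-40*, *ttr-42*, *ttr-44*, *ttr-48*, *ttr-53* and *ttr-54*. Opposite calls, up in wild type and down in labelled-deficient animals, were made for *ttr-1*, *ttr-17* and *ttr-39* (6.12% against 0.732%), and no member had the reverse pattern. Fed and fasted libraries overlapped for *ttr-1* in wild type and for *ttr-39* in labelled-deficient animals. *ttr-5*, *ttr-34*, *ttr-43*, *ttr-49* and *ttr-52* rose in wild type without a call in labelled-deficient animals (10.2% against 16.3%), and *ttr-28* fell in wild type without one (2.04% against 17.8%). *ttr-10*, *ttr-20*, *ttr-21* and *ttr-37* were called in neither (8.16% against 30.6%). Some of the missing calls in wild type hung on 1 library. Without replicate 4 of fed wild type *ttr-32* (-0.43) and *ttr-8* (-0.49) were called lower, without replicate 1 of fed wild type *ttr-42* (0.44) was called higher, and without replicate 4 of fasted wild type *ttr-37* (0.53) was called higher. A call in 1 genotype alone does not show a difference, which the interaction tests.

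**Figure D2:**
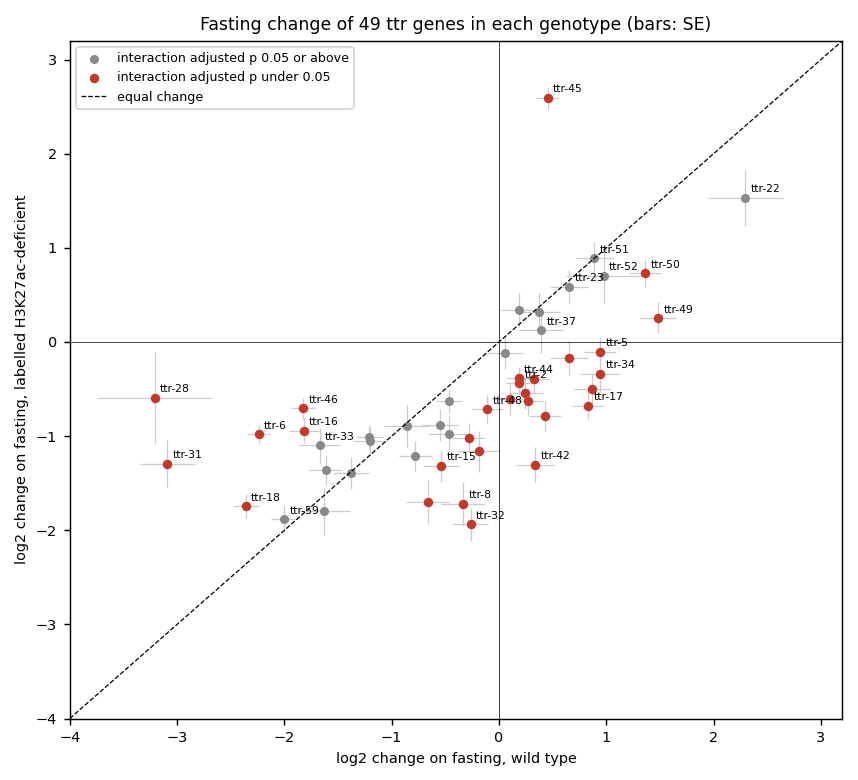
Log2 change on fasting of the 49 tested members in wild type (x axis) and in labelled-deficient animals (y axis), with SE bars. Red marks members whose changes differed between genotypes (interaction adjusted p under 0.05), and the dashed line marks equal change. Of the red points 22 lie below the line and 7 above it, with *ttr-45* the farthest above among those of at least 5 CPM.

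The interaction subtracts the wild-type fasting change from the labelled-deficient one. It was below 0 for 22 members and above 0 for 7 (44.9% and 14.3%). Among all tested genes these shares were 11.4% and 14.5%. The median over the members was -0.43, and over all tested genes 0.07. Without replicate 4 of every group the counts were 24 and 7, against 1954 and 2441 of 16001 genes. At an adjusted p under 0.01 the lower count was 10, against 914 of 15840 genes. Interactions of at least 2-fold were called for 5 members above 0 and 10 below (10.2% and 20.4%, against 4.97% and 6.62% of all tested genes).

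*ttr-17* (WBGene00012383, chromosome IV, 11066019 to 11067026, minus strand) changed in opposite directions. It was at 149, 141, 156 and 90.6 CPM in fed and 249, 249, 242 and 211 CPM in fasted wild type, but at 223, 194, 211 and 157 CPM in fed and 103, 136, 133 and 119.4 CPM in fasted labelled-deficient animals. All fasted wild-type libraries were above the fed ones, and all fasted labelled-deficient libraries were below theirs. Its log2 changes on fasting were 0.83 ± 0.15 and -0.68 ± 0.15, and the interaction was -1.50 ± 0.21 (adjusted p = 1.33e-05, edgeR). *ttr-42* (WBGene00045268, chromosome X, 2577742 to 2578262, plus strand) was at 139, 114, 138 and 67.2 CPM in fed and 156, 157, 147 and 118.9 CPM in fasted wild type, with overlap. In labelled-deficient animals it was at 121, 95.1, 103 and 74.7 CPM when fed and 38.1, 46.0, 42.0 and 33.7 CPM when fasted, without overlap. The interaction of *ttr-42* was -1.64 ± 0.26 and that of *ttr-32* was -1.67 ± 0.24 (adjusted p = 5.86e-05 and adjusted p = 2.27e-05, edgeR).

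*ttr-49* rose in wild type and was at 25.97, 21.6, 17.6 and 15.4 CPM in fed and 22.6, 24.4, 24.0 and 25.3 CPM in fasted labelled-deficient libraries, which overlapped. Its interaction was -1.23 ± 0.23 (adjusted p = 0.000481, edgeR). *ttr-34* and *ttr-5*, which also rose in wild type, had means of 11.8 ± 2.14 and 9.32 ± 1.86 CPM, and of 61.8 ± 8.76 and 57.7 ± 7.65 CPM, in fed and fasted labelled-deficient animals. Their interactions were -1.28 ± 0.27 and -1.04 ± 0.21 (adjusted p = 0.00132 and adjusted p = 0.000799, edgeR). For these genes the fasted level was above the fed level in wild type and near it in labelled-deficient animals. Interactions above 0 were largest, among members of at least 5 CPM, in *ttr-45* (2.14 ± 0.16, adjusted p = 1.64e-09 by edgeR), which rose more in labelled-deficient animals. In *ttr-6*, *ttr-46* and *ttr-16*, with 1.26 ± 0.15, 1.12 ± 0.15 and 0.88 ± 0.19, the fall was smaller there than in wild type. For *ttr-51* the changes in the 2 genotypes differed by less than 0.01 with an SE of 0.24.

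The interaction calls of *ttr-50* and *ttr-48* lay near the threshold. That of *ttr-50* was -0.63 ± 0.21 (adjusted p = 0.0316, edgeR), and its call was lost in 8 of 16 fits that left out 1 library (-0.64 to -0.56, edgeR adjusted p up to 0.0734). Those libraries were replicates 1, 2 and 3 of fasted wild type, replicates 1, 2 and 3 of fed labelled-deficient and replicates 1 and 4 of fasted labelled-deficient animals. That of *ttr-48* was -0.61 ± 0.21 (adjusted p = 0.035, edgeR), and it was lost in 9 such fits (-0.59 to -0.47, edgeR adjusted p up to 0.0761). They left out replicate 4 of fed wild type or 1 of the 8 libraries just named for *ttr-50*.

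**Figure D3:**
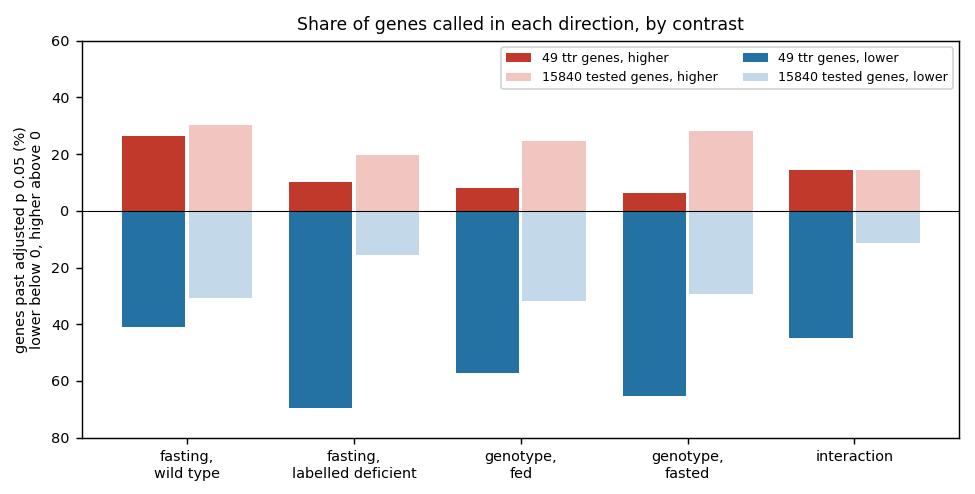
Share of genes called in each direction (y axis, percent, higher above 0 and lower below) for the 5 contrasts (x axis). Dark bars are the 49 tested members and light bars all 15840 tested genes. Members called lower exceed the share of all genes in every contrast shown, most on fasting in labelled-deficient animals (69.4% against 15.7%). For fasting in wild type the excess was absent among genes of at least 5 CPM (13 of 43 members, 3254 of 10092 genes).

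Comparing genotypes within a feeding state, most members were lower in labelled-deficient animals. When fed, 4 members were higher and 28 lower (8.16% and 57.1%, against 24.6% and 31.7% of all tested genes), with a median log2 difference (labelled-deficient minus wild type) of -0.59 against -0.08 over all genes. When fasted, 3 were higher and 32 lower (6.12% and 65.3%, against 28.2% and 29.3%), with a median of -1.02 against -0.04. In both states 22 members were lower (44.9% against 19.6%) and *ttr-52* was higher (2.04% against 16.7%). A further 9 were lower when fasted without a call when fed (18.4% against 8.96%), 4 were lower when fed without a call when fasted (8.16% against 10.5%), and 8 were called in neither state (16.3% against 25%). The fasted comparison had 25 called members lower by 2-fold or more (51.02% against 13.9%) and none higher (against 6.31%), and the fed comparison had 15 lower (30.6% against 13.2%) and 2 higher (4.08% against 7.71%). These contrasts share their libraries with the fasting contrasts above.

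Scaling by library size alone gave 8 members higher and 18 lower when fed, against 5903 and 3018 of 15840 genes. The median over all genes was then 0.22, and the fasted counts stayed at 3 and 32, against 4469 and 4504 genes. Without replicate 4 of every group the counts were 3 and 33 when fed and 3 and 36 when fasted. Over the 16001 genes tested there they were 3772 and 5166 when fed and 4430 and 4865 when fasted. All 7 intestine markers were lower in fed labelled-deficient animals, with a summed level of 17358 to 22310 CPM against 37038 to 50085 CPM in fed wild type. Nearly all of this sum was *vit-2* and *vit-6*, with means of 11144 and 8604 CPM against 24469 and 19756 CPM. In the same comparison 4 of 4 somatic gonad markers were lower (163 to 190.4 CPM against 335 to 449 CPM), 6 of 8 neuron markers were lower (337 to 413 CPM against 375 to 465 CPM), and of 6 body wall muscle markers 4 were lower and 1 higher. Of 9 germline and oocyte markers 4 were higher and none lower, at 2884 to 5073 CPM against 2380.1 to 3862 CPM. In the fasted comparison all 9 germline and oocyte markers were higher, at 3423 to 4704 CPM against 1706 to 2013 CPM, 5 of 6 body wall muscle markers were lower (927 to 1038 CPM against 1517 to 1662 CPM) and 3 of 3 coelomocyte markers were lower (7.81 to 8.09 CPM against 23.0 to 30.2 CPM). Other lists were mixed when fasted. Of 7 intestine markers *ifb-2* and *act-5* were higher and *ges-1*, *vit-2* and *vit-6* lower. Of 4 somatic gonad markers 1 was higher and 1 lower, of 8 neuron markers 1 and 2, and of 5 tested hypodermis markers 1 and 2. No marker was at 0 in a whole group. Their part in the members' differences was not tested.

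*ttr-44* had the largest genotype difference. *ttr-44* (WBGene00008341, chromosome V, 13529545 to 13530744, minus strand) was at 154, 149, 161 and 128 CPM in fed and 169.6, 154, 176 and 173 CPM in fasted wild type, and at 24.4, 22.8, 27.5 and 28.9 CPM in fed and 24.0, 18.02, 17.7 and 19.7 CPM in fasted labelled-deficient animals. The genotypes were far apart in both states, with log2 differences of -2.51 ± 0.12 when fed and -3.08 ± 0.12 when fasted (adjusted p = 1.89e-13 and adjusted p = 9.39e-15, edgeR). Fed and fasted libraries overlapped within each genotype, and the fall called on fasting in labelled-deficient animals (-0.38 ± 0.12) was lost without replicate 2 or 3 of the fasted group (-0.34 to -0.33, edgeR adjusted p up to 0.0534). Exons of *ttr-44* share 25% of their bases with *R11G10.3* on the opposite strand, a gene with group means of 1.13 to 1.95 CPM.

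*ttr-37* (WBGene00017667, chromosome X, 1335364 to 1337175, minus strand) also differed between genotypes, at a lower level. It was at 21.6, 23.0, 23.5 and 15.7 CPM in fed and 32.2, 30.8, 27.7 and 19.1 CPM in fasted wild type, and at 4.15, 5.37, 5.15 and 2.42 CPM in fed and 4.41, 6.37, 5.23 and 2.80 CPM in fasted labelled-deficient libraries. Its log2 differences were -2.28 ± 0.23 when fed and -2.54 ± 0.23 when fasted (adjusted p = 2.38e-08 and adjusted p = 5.19e-09, edgeR). *ttr-46* and *ttr-59* were lower in both states as well, with log2 differences of -2.25 ± 0.11 and -1.82 ± 0.12 when fed and of -1.13 ± 0.11 and -1.70 ± 0.14 when fasted. *ttr-8* and *ttr-5* had differences of -2.06 ± 0.23 and -1.91 ± 0.15 when fasted, and smaller ones of -0.68 ± 0.21 and -0.87 ± 0.15 when fed. The fed call of *ttr-8* was lost when libraries were scaled by size alone (edgeR adjusted p = 0.162).

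Few members were higher in labelled-deficient animals. When fed these were *ttr-52*, *ttr-22*, *ttr-17* and *ttr-50*, with log2 differences of 0.55 ± 0.15 and 0.49 ± 0.15 for the last 2 (adjusted p = 0.00296 and adjusted p = 0.00778, edgeR). When fasted they were *ttr-52*, *ttr-45* and *ttr-6*, with 0.89 ± 0.11 and 0.32 ± 0.10 for the last 2 (adjusted p = 4.54e-07 and adjusted p = 0.0103, edgeR). Between the feeding states 3 members changed sides: *ttr-17* was higher when fed and lower when fasted (2.04% of members against 0.795% of all tested genes), and *ttr-6* and *ttr-45* were lower when fed and higher when fasted (4.08% against 1.65%). *ttr-22* and *ttr-50* were higher when fed without a call when fasted (4.08% against 7.01%). *ttr-48* missed the threshold when fed (0.34 ± 0.15, adjusted p = 0.0502 by edgeR), and was called in 8 of 10 alternative settings.

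**Figure D4:**
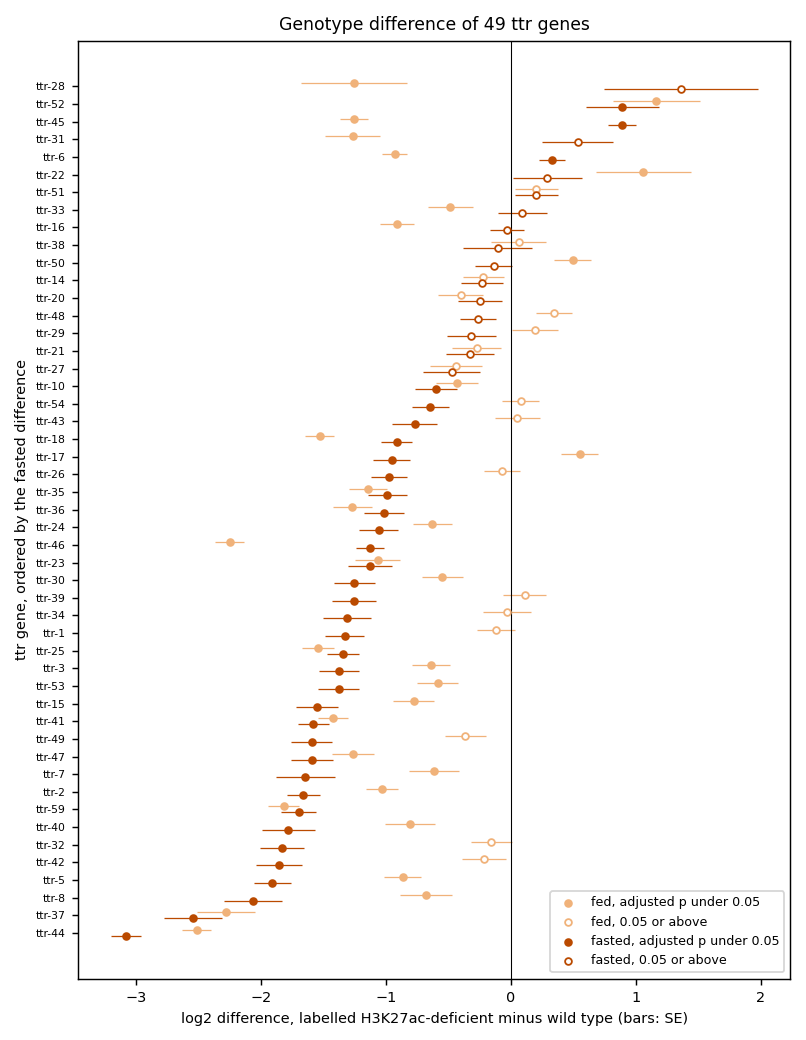
Log2 difference between genotypes (labelled-deficient minus wild type, x axis) for the 49 tested members (y axis, ordered by the fasted difference), with SE bars. Light points are fed and dark points fasted animals, and filled points passed an adjusted p of 0.05. Most points lie left of 0, with *ttr-44* at -2.51 when fed and -3.08 when fasted.

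The sum over the 58 members differed between groups by ratios of 0.876 to 1.12. Summed TPM was 14474 ± 2276 (fed) and 16043 ± 1460 (fasted) for wild type, and 12682 ± 1930 and 14158 ± 969 for labelled-deficient animals (SD, n = 4). None of the 4 comparisons passed an exact permutation test (two-sided p from 0.0857 to 0.343, adjusted over the 4 to 0.343 each). The ratios were 1.11 and 1.12 for fasting in wild type and in labelled-deficient animals, and 0.876 and 0.882 for labelled-deficient against wild-type animals when fed and when fasted. Replicate numbers pair the fed libraries of the 2 genotypes, and the summed TPM was lower in the labelled-deficient library of all 4 pairs, at 0.852 to 0.907 of the wild-type one (exact paired permutation p = 0.125, the smallest that 4 pairs can give). Without *ttr-51* the summed TPM was 11298 ± 779 in fasted wild type and 7710 ± 346 in fasted labelled-deficient animals, a ratio of 0.682, and the libraries did not overlap (exact permutation p = 0.0286, the smallest that 4 against 4 can give, and 0.114 adjusted). The median TPM over the members was 66.2 ± 5.82 and 29.2 ± 2.92 in the same groups, a ratio of 0.440 (exact permutation p = 0.0286, adjusted 0.0571). In CPM, which is not divided by length and is scaled by TMM, the sum was lower in labelled-deficient animals, with a ratio of 0.666 when fed and 0.733 when fasted, and without overlap (exact permutation p = 0.0286 each, adjusted 0.0571). As a plain percentage of reads, with no TMM scaling, the fed ratio was 0.824 and the libraries overlapped (exact permutation p = 0.171, adjusted 0.229), while the fasted ratio was 0.735 without overlap (exact permutation p = 0.0286, adjusted 0.114). With 4 libraries a group and 4 comparisons, no sum passed the adjusted threshold.

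Members that lie next to each other were compared within 13 pairs that are under 10 kb apart. For each pair the log2 ratio of the TPM of the 2 members (0.1 TPM added to each) was compared between groups, in 52 tests over the 4 pairwise contrasts. The pairs described below were chosen after their values were seen. In 30 of the 52 tests the ratio changed at an adjusted p of 0.0496 by an exact permutation test, each at the smallest p of 0.0286. Such ratios were not tested for genes that lie apart, and some members sit in 2 pairs, so this count does not set neighbours apart. *ttr-16* and *ttr-17* lie on the same strand of chromosome IV with 1881 bases between them. On fasting in wild type *ttr-16* changed by -1.82 and *ttr-17* by 0.83 on the log2 scale, and the log2 ratio of *ttr-17* to *ttr-16* rose by 2.62. In labelled-deficient animals both fell, and the ratio changed by 0.26 (exact permutation p = 0.0857).

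*ttr-40* and *ttr-49* lie 33 bases apart on the same strand of chromosome V. In wild type *ttr-49* rose on fasting while *ttr-40* had a log2 change of -0.19 ± 0.20, and in labelled-deficient animals *ttr-40* fell, with a log2 change of -1.16 ± 0.22, so that the ratio of *ttr-49* to *ttr-40* rose by 1.54 and 1.45. *ttr-59* and *ttr-30*, 279 bases apart on the X chromosome, also differed, with log2 changes in wild type of -2.002 for *ttr-59* and 0.10 ± 0.16 for *ttr-30*. In labelled-deficient animals both fell, with -1.88 and -0.61. *ttr-25* and *ttr-26*, 658 bases apart on opposite strands of chromosome V, had log2 changes of -1.21 ± 0.13 and 0.27 ± 0.14 in wild type. *ttr-51* and *ttr-45*, 1913 bases apart on opposite strands of chromosome IV, both rose in both genotypes, with 0.89 and 2.59 in labelled-deficient animals. *ttr-36* and *ttr-35*, 89 bases apart on the X chromosome, both fell, with log2 changes of -1.61 and -1.21 in wild type and -1.36 and -1.05 in labelled-deficient animals. The log2 ratio of *ttr-35* to *ttr-36* still rose by 0.41 in wild type (exact permutation p = 0.0286, adjusted 0.0496). In labelled-deficient animals it rose by 0.32 (exact permutation p = 0.0571, adjusted 0.0825). Closeness on the chromosome thus went with unlike changes in several pairs and with changes in the same direction in others.

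**Figure D5:**
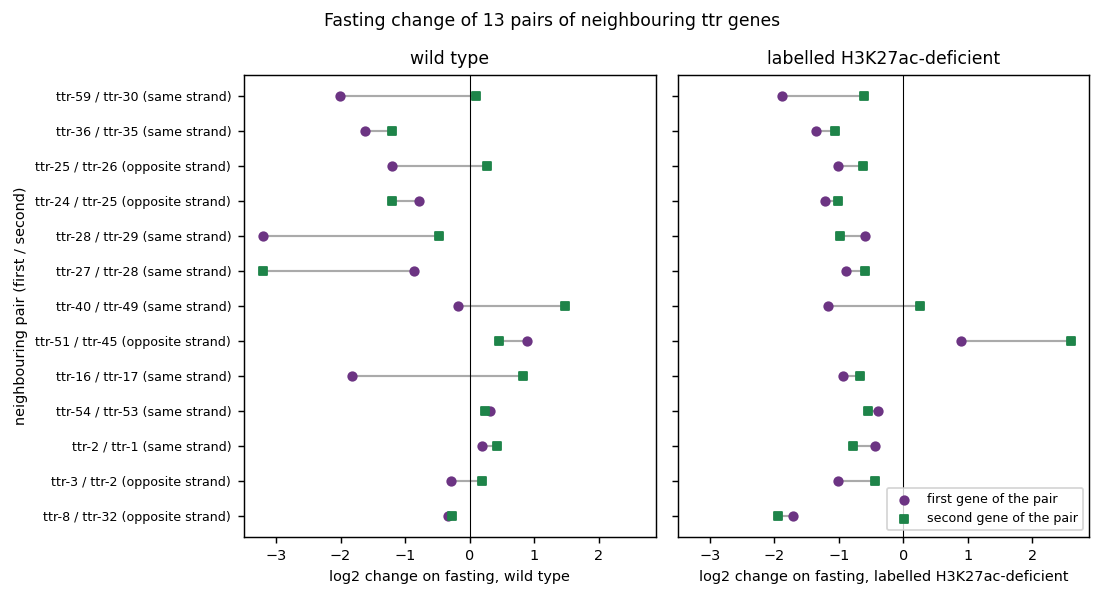
Log2 change on fasting (x axis) of the first (circle) and second (square) gene of 13 neighbouring pairs (y axis), in wild type (left) and in labelled-deficient animals (right). The line between the points is the difference within a pair. In wild type *ttr-16* and *ttr-17* lie on opposite sides of 0 (-1.82 and 0.83), and in labelled-deficient animals both lie below it.

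The members with an established role were not among the abundant ones. *ttr-52* (WBGene00008719, chromosome III, 13404718 to 13405783, plus strand), whose product links dying cells to CED-1, had 5 to 37 reads per library. It was at 0.520, 0.446, 0.336 and 0.293 CPM in fed and 0.734, 0.907, 0.892 and 0.660 CPM in fasted wild type, and at 0.853, 1.11, 0.528 and 1.16 CPM in fed and 1.42, 1.85, 1.72 and 0.954 CPM in fasted labelled-deficient animals. Labelled-deficient libraries were above the wild-type ones in each state, with log2 differences of 1.16 ± 0.34 when fed and 0.89 ± 0.29 when fasted (adjusted p = 0.00662 and adjusted p = 0.0122, edgeR). Its rise on fasting was 0.97 ± 0.35 in wild type (adjusted p = 0.0215, edgeR) and 0.70 ± 0.28 in labelled-deficient animals (adjusted p = 0.0589, edgeR). At this depth the calls were not firm. The wild-type rise lost its call without replicate 3 or 4 of fed or replicate 2 or 3 of fasted wild type (0.84 to 0.91, edgeR adjusted p up to 0.0661), and the fasted difference without replicate 4 of fasted wild type (0.76). The fed difference was not called without replicate 4 of every group (0.91, edgeR adjusted p = 0.0503), whereas the rise in labelled-deficient animals was called without replicate 4 of either of its groups (0.82 to 0.85).

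*ttr-33* (WBGene00016505, chromosome V, 7837093 to 7837909, minus strand), whose product protects dopaminergic neurons, was at 18.6, 15.2, 15.3 and 10.31 CPM in fed and 5.72, 4.48, 4.86 and 3.63 CPM in fasted wild type. It was at 11.8, 10.5, 12.5 and 7.63 CPM in fed and 4.41, 4.95, 5.93 and 4.65 CPM in fasted labelled-deficient animals. Fasted libraries were below all fed ones in each genotype, with log2 changes of -1.67 ± 0.19 and -1.10 ± 0.19 (adjusted p = 1.14e-07 and adjusted p = 8.06e-05, edgeR). The genotypes overlapped in both states. The fed difference of -0.48 ± 0.18 (adjusted p = 0.0239, edgeR) lost its call without replicate 1 of fed wild type or replicate 4 of fed labelled-deficient animals (-0.36 to -0.35, edgeR adjusted p up to 0.103).

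A list of 13 genes of phosphatidylserine exposure and engulfment held *ced-1*, the gene of the receptor to which TTR-52 bridges, and genes of other steps. Of the 13, 2 rose and 5 fell on fasting in wild type, and 2 rose and 1 fell in labelled-deficient animals. Of all tested genes 30.4% rose and 30.6% fell in wild type, and 19.6% and 15.7% in labelled-deficient animals. When fasted, 8 were higher in labelled-deficient animals than in wild type (*ced-2*, *ced-5*, *ced-6*, *ced-7*, *ced-12*, *nrf-5*, *tat-1* and *nex-1*) and *ced-8* was lower. Of all tested genes 28.2% were higher and 29.3% lower in that comparison. When fed 3 were higher and 3 lower, against 24.6% and 31.7% of all tested genes. The summed level of the 13 genes was 900.2 to 1018 CPM in fasted wild type and 1192 to 1371 CPM in fasted labelled-deficient animals. *ced-1* itself was called in none of the 5 contrasts (log2 difference between fasted genotypes 0.06, edgeR adjusted p = 0.727).

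Reads of a family with similar sequences can be shared among its members. The deposited counts are model estimates, and a fraction of a read shows that some reads were divided. Of the 58 members 13 had whole reads in all 16 libraries (within 0.001 reads), and *ttr-15* and *ttr-51* had whole reads in none. The 13 included every untested member, each with few reads to divide. Among the tested members only *ttr-1*, *ttr-10*, *ttr-22* and *ttr-31* had whole reads throughout. In 17 members an annotated exon overlaps an exon of another gene. Apart from *ttr-16* and *ttr-44*, the shared part was 2.15% to 13.01% of the exon bases of the member. *ttr-39*, one of the members with opposite calls, shares 10.44% with *ndc-80* on the opposite strand, a gene with group means of 165 to 241 CPM, against 10.9 to 25.9 CPM for *ttr-39*. *ttr-32* shares 7.75% with *R13A5.7* on the opposite strand, at 9.65 to 13.4 CPM, against 7.43 to 31.8 CPM for *ttr-32*.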

How the data were processed

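Polyadenylated RNA of whole animals was read in pairs of 150 bases, as the labels' protocols state. The submitters' processing notes name FastQC 0.11.8, MultiQC 1.19, Salmon 1.9.0, R 4.3.2 and DESeq2, and the build WBcel235 (ce11). The authors deposited estimated counts per gene and, per library, Salmon transcript tables with estimated counts and TPM, per the file headers. Estimated counts were rounded here. TPM was summed over the transcripts of a gene.

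Genes were kept by filterByExpr, scaled by TMM and fitted with a quasi-likelihood model of 1 coefficient per group in 1 fit over the 16 libraries (R 4.3.3 with edgeR 4.0.16, robust), with two-sided tests and Benjamini-Hochberg adjustment over the 15840 genes in each of 5 contrasts. The script was tested on simulated counts. Standard errors are the absolute log2 change divided by the square root of F. Single values per library were compared by exact permutation tests (scipy 1.17.1). Positions are from Ensembl release 115, matched by gene identifier for all 58 members. Sums of transcript counts equalled the gene table for every member. No pair of libraries of a group agreed within sampling noise (chi-square per degree of freedom at least 5.75 over genes with at least 20 reads).

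Members and lists were chosen with earlier results of these data known. Named were the 4 largest changes in each direction per contrast among called members of at least 5 CPM on average, the 6 most abundant members, *ttr-52* and *ttr-33*. Values in every library are given for the largest 2 of each and the latter groups. Protein and promoter sequences were not used here, so the planned choice of the most alike members was not applied. Marker lists covered intestine, hypodermis, body wall muscle, pharynx, neuron, glia, coelomocyte, somatic gonad, germline and oocyte, sperm and embryo.

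Same-numbered libraries of the fed genotypes deviated together from their group means (correlations 0.34, 0.18, 0.11 and 0.42), so the replicate numbers pair libraries in that comparison, but not in every pair of the others. Alternatives were scaling by library size, DESeq2 size factors, DESeq2 1.42.0, limma voom (3.58.1), no filter, a mean of at least 5 CPM, an adjusted p of 0.01, the compared groups alone, a replicate block, each library left out, and, added after seeing the data, replicate 4 of every group left out, percentages of reads in place of summed CPM, and paired tests of the fed sums.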

Additional observations from a re-analysis of the deposited data

Results flagged for a closer look

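In 5 of 92 groups of 4 libraries of the named members, 1 library lay far from the other 3, and chance alone flags about 1 group in 20. Replicate 4 was the low library in 4 of them. In fed labelled-deficient animals it was at 8.58 CPM for *ttr-34* (others 12.5 to 13.3 CPM) and at 20.7 CPM for *ttr-32* (others 30.1 to 31.4 CPM). In fed wild type it was at 614 CPM for *ttr-51* (others 1037 to 1076 CPM), and in fasted wild type at 181 CPM for *ttr-5* (others 226 to 229.7 CPM). For *ttr-8* replicate 3 of fasted labelled-deficient animals was high, at 3.67 CPM (others 1.80 to 2.07 CPM).

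The fasting change differed between genotypes, by the interaction term of edgeR, in 17 named members. The log2 interaction was above 0 for *ttr-45* (2.14), *ttr-6* (1.26), *ttr-46* (1.12), *ttr-16* (0.88) and *ttr-18* (0.62). It was below 0 for *ttr-32* (-1.67), *ttr-42* (-1.64), *ttr-17* (-1.50), *ttr-8* (-1.38), *ttr-34* (-1.28), *ttr-49* (-1.23), *ttr-5* (-1.04), *ttr-15* (-0.77), *ttr-50* (-0.63), *ttr-2* (-0.63), *ttr-48* (-0.61) and *ttr-44* (-0.56). The 2 directions thus held 5 and 12 of these members.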

How the results depend on the processing

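Among the named members 86 changes were called over the 5 contrasts, and 70 of them kept direction and call in all 16 fits without 1 library and under each alternative run for them, which were 10 for 66 changes and 9 for 20 (interactions have no fit of the compared groups alone, and *ttr-52* is under 5 CPM). No called change turned its sign. Scaling by library size alone gave 23 members higher on fasting in wild type (median 0.24), 8 higher and 18 lower between fed genotypes (median -0.29), and a median interaction of -0.73. Of all 15840 tested genes it called 7458 higher in the first and 5903 higher and 3018 lower in the second contrast. It moved the median of all genes to 0.35, 0.22 and -0.22 in these contrasts, and under it the interaction of *ttr-18* was 0.31 (edgeR adjusted p = 0.137). With a mean of at least 5 CPM, 13 members were lower on fasting in wild type (median 0.18) and 2 higher between fed genotypes, and the medians were -1.19 between fasted genotypes and -0.58 for the interaction, with 43 members tested. Of the 10092 genes tested in that setting, 3254 were lower on fasting in wild type and 2866 higher between fed genotypes. Without a filter the median interaction was -0.55. At an adjusted p of 0.01, 1 member was higher between fasted genotypes and 10 had an interaction below 0. Over all tested genes these counts were 3712 and 914. With the replicate number as a block, the counts higher and lower were 19 and 23 (wild-type fasting), 7 and 35 (labelled-deficient fasting), 5 and 32 (fed genotypes, where the numbers pair libraries), 5 and 35 (fasted genotypes) and 8 and 23 (interaction). Over all 15840 genes they were, in the same order, 5306 and 5386, 4277 and 3129, 4392 and 5559, 4964 and 5036, and 3843 and 2579. Leaving out 1 library gave a median interaction of -0.56 (without replicate 4 of fasted wild type) to -0.32. In TPM 5 members were highest in fed and 7 in fasted labelled-deficient animals, in CPM 3 and 4. The causes of these shifts were not tested. Members under 5 CPM and the 9 untested ones are limited by depth, intervals and tests do not cover reads shared among similar members, and p-values rest on 4 libraries a group.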

Other observations

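A gene with a transthyretin domain outside the ttr names, *R09H10.3*, was lower on fasting in wild type (log2 change -1.10) and in labelled-deficient animals (-0.92), and lower in labelled-deficient animals when fed (-0.60) and when fasted (-0.42), each past the edgeR threshold. Its interaction was 0.18 and did not pass. Of the marker lists not set beside the fasting results above, 8 neuron markers had none higher and 5 lower on fasting in wild type, at 375 to 465 CPM summed in fed and 371 to 397 CPM in fasted animals, and none higher and 1 lower in labelled-deficient animals. Of 6 pharynx markers 1 rose and 1 fell on fasting in wild type, and 1 rose in labelled-deficient animals. Of 4 glia markers 2 rose and 1 fell in wild type, and 2 rose in labelled-deficient animals. Of 4 sperm markers 2 were tested, of which both rose on fasting in wild type and 1 in labelled-deficient animals.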
